A study of Homo sapiens with 9 samples.

Results

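The proteasome is described here by 41 genes, chosen by name: 14 genes of the 20S core (7 of the alpha ring, 7 of the beta ring), 19 of the 19S cap (6 ATPases, 13 non-ATPase subunits), 5 assembly factors of the 20S core, the alternative activators PSME3 and PSME4, and the transcription factor NFE2L1. They were taken from 61544 genes listed in the count files, and all 41 were among the 14727 genes with enough counts to be tested. RNA was sequenced from HMC3 cells, a human microglia line immortalized with SV40 large T antigen, after 6 days of treatment begun 24 h after seeding, in 9 libraries with 3 in each group. SLO cells received SBI-0206965 at 10 µM, which inhibits ULK1, the kinase that starts autophagy, together with O-151 at 1 µM, an inhibitor of the DNA glycosylase OGG1, and Lopinavir at 1 µM, an HIV protease inhibitor that also blocks Lamin A processing. For SLO ½ the concentrations were 5, 0.5 and 0.5 µM in the same order, and VEH cells were given the solvent DMSO alone. The line is an immortalized culture rather than primary microglia, and the compounds were not given singly, so that a difference belongs to the mixture. Nothing in the labels says that the replicates were separate cultures, so p-values measure only the spread between these libraries, which may be technical.

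The 26S proteasome degrades proteins tagged with ubiquitin. Its 20S core is a barrel of alpha rings, which form the gate, and beta rings, which carry the catalytic sites, and its 19S cap binds ubiquitin, removes it, and unfolds the substrate with a ring of ATPases. Dedicated chaperones build each half-barrel, the immunoproteasome swaps in other catalytic subunits after interferon exposure, and NFE2L1, a transcription factor made in the endoplasmic reticulum and itself degraded by the proteasome, drives the subunit genes through antioxidant response elements when proteasome activity is low.

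The promoters of the members were read for letters of sites tied to these genes in general, TGACNNNGC (the core of the antioxidant response element), CCAAT and CCGGAAG (the letters bound by ETS factors), each on both strands, in RefSeq windows of GRCh38.p14 from 250 bases before to 50 bases after the start. Of the 41 members, 35 had a window, 46 windows in all. PSMA7, PSMB1, PSMB6, PSMB7, PSMD4 and PSMG3 had no entry. TGACNNNGC stood in 28.3% of the member windows and in 13.3% of all 35116 windows, CCGGAAG in 28.3% and 10.3%, and CCAAT in 45.7% and 34.6%. No TGACNNNGC match shared a base with a CCGGAAG match in these windows. A match is only a run of letters, and binding was not measured. A TGACNNNGC match before the start was found for 10 members, and windows of 30 bases are shown for 7 of them, because NFE2L1 is known to act through such letters. The 7 were not chosen by a rule and do not stand for all 10. They are printed with the match in capitals, read 5′ to 3′ on the strand named.
PSMA4, chr15:78540650-78540679, plus strand: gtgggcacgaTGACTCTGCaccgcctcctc
PSMB3, chr17:38752627-38752656, plus strand: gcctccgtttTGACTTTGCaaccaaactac
PSMC5, chr17:63827654-63827683, minus strand: gagggcggcgcTGACACAGCagatccggtc
PSMD3, chr17:39980760-39980789, plus strand: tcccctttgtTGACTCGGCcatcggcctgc
PSMD12, chr17:67366723-67366752, minus strand: agacaaaaccTGACGCTGCaggctggagtg
PSMG2, chr18:12658689-12658718, plus strand: cagtttcccgTGACCCCGCggccgctctgc
PSME4, chr2:53971008-53971037, plus strand: ggctctgctggTGACGCTGCagccgccggg

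Windows around CCGGAAG are shown for 4 of the 13 members with a match. They are an ATPase with a large fall, a second ATPase, the deubiquitinase of the cap, and the maturation factor of the core. These 4 were not chosen by a rule and do not stand for all 13.
PSMC6, chr14:52707082-52707111, plus strand: gacggggccaaCCGGAAGgggagggctcat
PSMC2, chr7:103347609-103347638, minus strand: ttcccttccccaCCGGAAGtaaattgggct
PSMD14, chr2:161308410-161308439, plus strand: aactagtgaacCCGGAAGtgcttcgcggcg
POMP, chr13:28659075-28659104, minus strand: cccccacatccgCCGGAAGtgcgtccgtcc

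The 150 bases before the start are shown for PSMC3, the member with the largest fall at the full dose, and for NFE2L1, which rose. Capitals mark CCAAT or its reverse complement ATTGG.
PSMC3, chr11:47426440-47426589, minus strand: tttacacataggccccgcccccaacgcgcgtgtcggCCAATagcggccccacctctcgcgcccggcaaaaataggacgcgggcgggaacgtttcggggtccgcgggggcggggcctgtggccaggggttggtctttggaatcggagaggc
NFE2L1, chr17:48048209-48048358, plus strand: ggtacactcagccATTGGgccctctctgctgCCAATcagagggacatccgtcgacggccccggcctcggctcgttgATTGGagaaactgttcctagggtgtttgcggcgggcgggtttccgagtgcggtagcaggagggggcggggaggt
Neither stretch held TGACNNNGC or CCGGAAG. PSMC3 had 1 CCAAT match there and NFE2L1 had 3.

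Reads assigned to genes numbered 14834295 to 19674841 per library. Mitochondrial transcripts took 1.3% to 1.61% of them under VEH, and more under either dose, 2.30% to 2.86% for SLO ½ and 2.51% to 3.12% for SLO. Of 14 microglia markers, P2RY12, C1QA, C1QB and GPR34 were listed at 0 in all 9 libraries, so that these defining markers of the labelled cell type were absent. The sum of 8 fibroblast or mural markers was higher with dose, from between 2775 and 3226 CPM (counts scaled to library size) in VEH libraries to between 3724 and 3821 for SLO ½ and between 4816 and 5111 for SLO. COL1A1 and TAGLN made up most of it and rose at both doses, as did ACTA2, whereas PDGFRB fell at both (log2 fold change -0.51 at SLO ½ and -0.28 at SLO), COL1A2 was at -0.09 at SLO ½ (not called) and rose by 0.25 at SLO, and COL3A1, LUM and DCN had too few counts to be tested. Sums of 4 astrocyte markers lay between 15.0 and 19.9 CPM in VEH, 28.3 and 32.1 in SLO ½, and 35.3 and 37.6 in SLO. Those of 4 neuron markers lay between 7.94 and 9.13, 13.1 and 14.2, and 16.2 and 18.9 in the same order, and 4 oligodendrocyte markers summed to at most 2.44. Of the astrocyte list, SLC1A3 made up most of the sum and rose at both doses, by 0.87 and then 1.17 on the log2 scale. ALDH1L1 went the other way, with a log2 fold change of -0.55 at SLO (called lower) and -0.45 at SLO ½ (not called). GFAP had too few counts to be tested, and AQP4 was at 0 throughout. Of the neuron list, SNAP25 made up most of the sum and rose by 0.76 at SLO ½ and 0.99 at SLO. MAP2 rose at both doses from at most 3 reads per VEH library. SYT1 was not called at either dose against VEH, and RBFOX3 had too few counts to be tested. The part of the mitochondrial share and of these markers in the proteasome values was not tested. In bulk RNA, fewer cells of a kind and less RNA per cell cannot be told apart.

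Proteasome transcripts were lower in SLO cells across most of the complex. Of the 41 members, 34 fell, NFE2L1 rose, and PSMA1, PSMA2, PSMB4, ADRM1, PSMG3 and PSMG4 were not called. Calls are from edgeR's quasi-likelihood test on all 9 libraries, with Benjamini-Hochberg adjusted p below 0.05 over all 14727 genes. Among all tested genes 32.1% were called lower and 32.9% higher in this comparison. The median log2 fold change of the members was -0.31, a fall of 19.4%, beside 0.014 for all tested genes, of which 64.9% were called in either direction. In all 34 members called lower, each SLO library lay below each VEH library, a pattern that 33% of all tested genes showed.

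At SLO ½ the picture was partial. There 17 members fell, PSMA7, ADRM1 and NFE2L1 rose, and 21 were not called, beside 25.3% of all tested genes called lower and 26.7% higher (52% in all). SLO ½ libraries all lay below VEH for 18 members (28.4% of all tested genes) and all above for 5 (30%). The median log2 fold change was -0.07, and all 17 that fell at SLO ½ also fell at SLO. Both comparisons use the same 3 VEH libraries, so their values are not independent. Between the doses, which do not involve VEH, SLO was lower than SLO ½ for 32 members (20.3% of all tested genes were called lower and 20.8% higher, 41.1% in all), with a median of -0.23. All SLO libraries lay below all SLO ½ libraries for 34 members, beside 25.6% of all tested genes, and 25.4% of those lay above. By edgeR 0 members were called higher in SLO than in SLO ½, and the count was also 0 at an unadjusted p below 0.05 and 0 by DESeq2 and by limma. Of the members called lower at both doses, 15 were also lower in SLO than in SLO ½, and the exceptions were PSMD4 and PSME4.

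**Figure D1:**
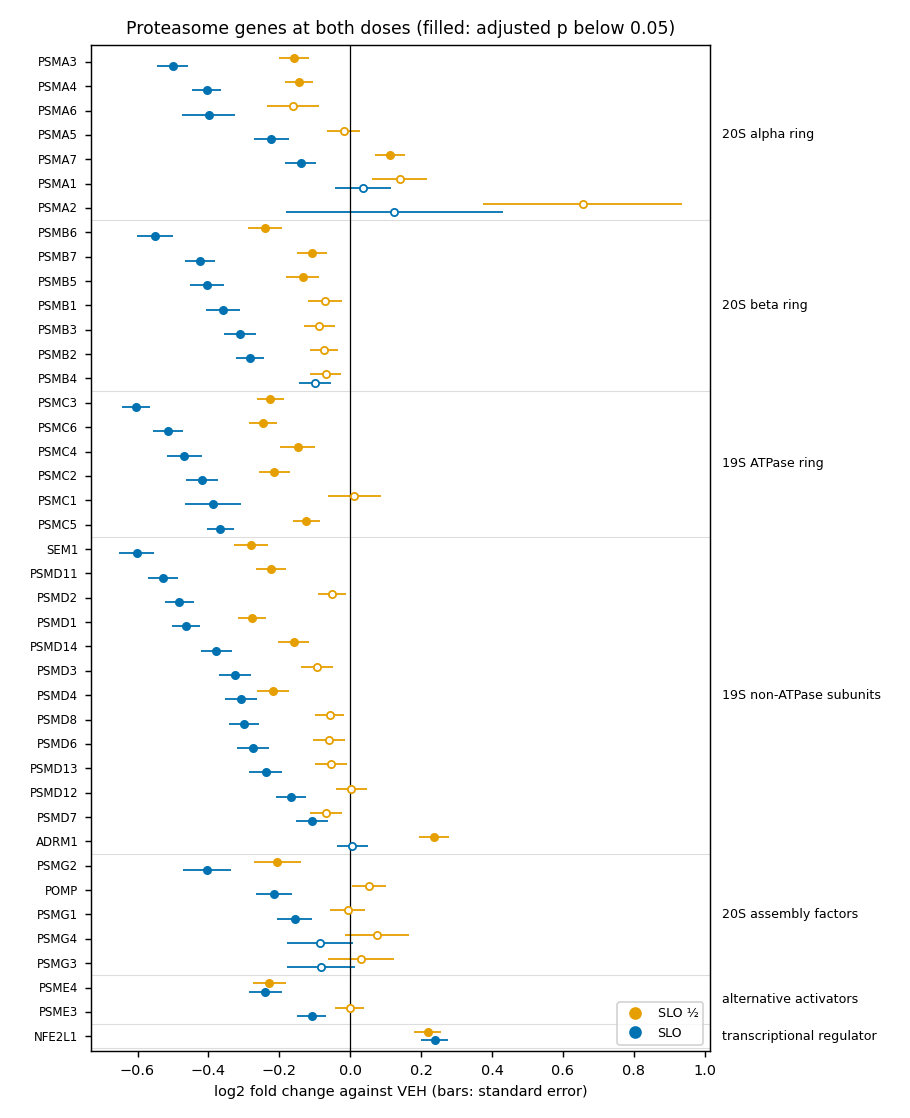
Log2 fold change against VEH (horizontal axis) of each of the 41 members (rows, grouped by role), for SLO ½ in orange and SLO in blue, with bars of 1 standard error and filled points for adjusted p below 0.05. Most blue points lie left of the orange ones, PSMC3 and SEM1 reach -0.60, and NFE2L1 lies at 0.24 and 0.22.

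The deposited TPM are scaled by gene length and library size, so that levels can be added across genes if the lengths hold. Those lengths are not given. In VEH, SEM1 had 88.4 CPM but 39.0 TPM, and PSMB6 had 80.8 CPM and 263 TPM. Yet the annotated SEM1 transcript is the shorter, at 458 bases beside 824, so the sums depend on lengths that differ from these. Summed TPM of the members were 7462, 7508 and 7915 in VEH, 7165, 7079 and 7105 in SLO ½, and 6341, 6108 and 6147 in SLO. The groups did not overlap, and the means were 93.3% of VEH at SLO ½ and 81.3% at SLO. The 19S ATPase ring was the lowest of the 7 roles relative to VEH, at 85.2% and 69.9% of its summed TPM, at SLO ½ and SLO. The 20S beta ring was at 90.0% and 78.5% and the 19S non-ATPase subunits were at 93.6% and 80.7%, an order of this pair at SLO that CPM reversed (79.9% and 78.2%). The 20S alpha ring was at 99.7% at SLO ½ and 85.4% at SLO, a sum in which PSMA7 alone supplies most of the TPM. Assembly factors were at 97.5% and 86.5%, the alternative activators at 92.5% and 89.7%, and NFE2L1 at 113% and 117%. These sums are given without a test, since members are not replicates.

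**Figure D2:**
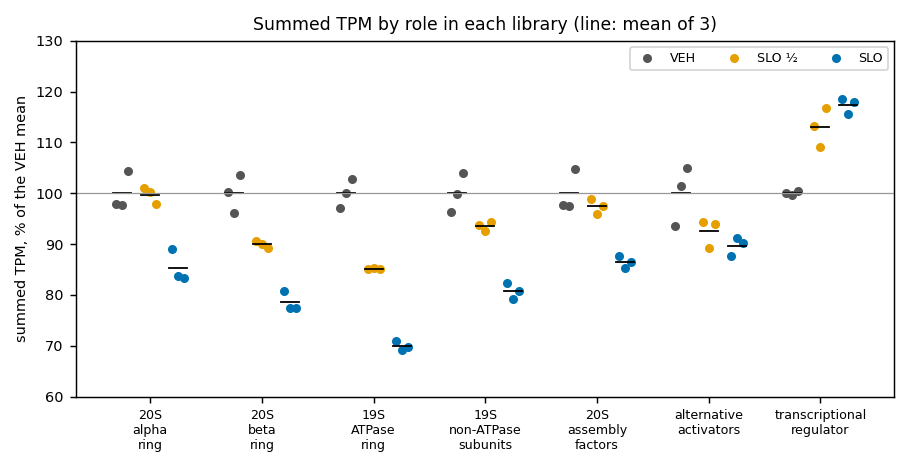
Summed TPM of each role in each of the 9 libraries (points), as percent of the mean of the 3 VEH libraries, with a line at each group mean. The vertical axis starts at 60%. The ATPase ring is lowest at SLO, with a mean of 69.9%, and NFE2L1 is the role above 100% at both doses.

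Levels differed widely among subunits that are built into the complex in equal numbers. In VEH, PSMA7 was the most abundant transcript of the 20S core, at 873 TPM ± 32.4 (SD, n = 3), and PSMA2 the least, at 0.598. The latter value is bound to the annotation. All of the PSMA2 transcript (100%) lies in exons of another listed gene on the same strand, ENSG00000256646, as do 67.0% of PSMA1 (ENSG00000256206) and 81.4% of PSMA6 (ENSG00000258790), and reads that fit 2 genes were counted as ambiguous and assigned to neither. Values of PSMA1, PSMA2 and PSMA6 therefore rest on few reads, and how much of them was set aside was not tested. Without these 3 genes the least abundant core transcript was PSMA5, at 70.3 TPM, and the range was 12.4-fold. In the 19S cap the levels ran from 16.8 TPM for PSMC1 to 565 for PSMD2. All these levels depend on the gene lengths behind the TPM, which are not given. Of the stretches of 50 bases in each transcript, 1301 of 4341 in PSMC1, 529 of 2114 in PSMC6, 241 of 974 in PSMA6, 297 of 1270 in PSMD4 and 297 of 2864 in PSMD2 are also found in a gene elsewhere in the genome, mostly processed pseudogenes. Reads that lie wholly within such parts can match several places and then are not counted. How many reads were lost in this way was not tested. Of 35 listed pseudogenes named after a member, 12 had any count, none above 17 in a library. This search by name leaves out the genes that share most stretches with PSMC6, PSMD2 and PSMD4, and their counts are not given here. Leaving out PSMA1, PSMA2 and PSMA6, 33 of 38 members fell at SLO.

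**Figure D3:**
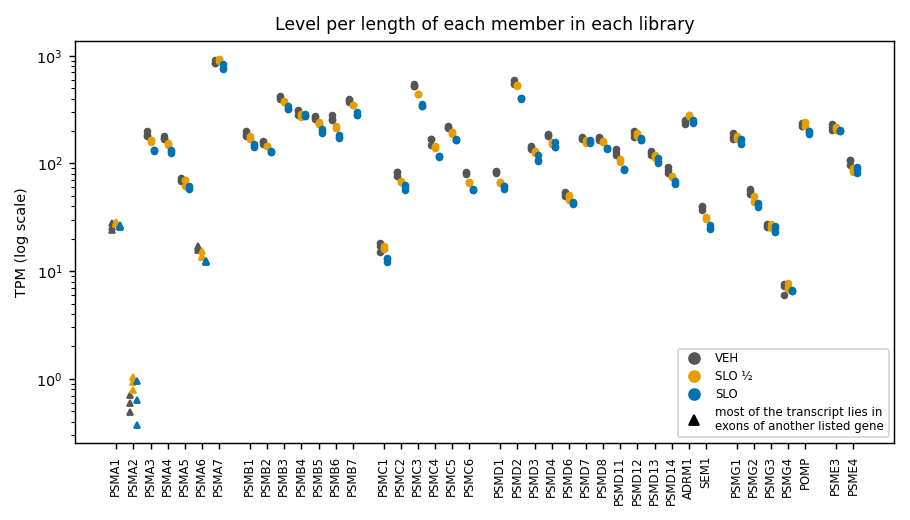
TPM (log scale) of 40 members, all but NFE2L1, in each library, 3 points per group in gray (VEH), orange (SLO ½) and blue (SLO). Triangles mark PSMA1, PSMA2 and PSMA6, whose transcripts lie mostly in exons of another listed gene, and PSMA2 stands lowest.

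In the alpha ring of the 20S core, which forms the gate through which unfolded chains enter, 5 of 7 genes fell at SLO, with a median log2 fold change of -0.22. PSMA3 was at 120, 121 and 131 CPM in VEH, 111, 111 and 112 in SLO ½, and 87.7, 85.9 and 89.5 in SLO. Every library of a higher dose lay below those of the lower, and the log2 fold change was -0.50 ± 0.044 (SE) at SLO (adjusted p = 5.25e-11) and -0.16 ± 0.043 at SLO ½ (adjusted p = 0.00282). An antisense gene, PSMA3-AS1, overlaps this locus, and its 813 to 1087 reads per library were counted apart by strand. PSMA4 went from 250, 255 and 264 CPM in VEH through 234, 237 and 226 to 198, 189 and 195. It fell by 0.41 on the log2 scale at SLO (SE 0.040, adjusted p = 4.74e-10) and by 0.14 at SLO ½ (adjusted p = 0.00304). PSMA6 had 22.9, 23.8 and 21.5 CPM in VEH, 21.6, 20.2 and 18.9 in SLO ½, and 17.2, 17.3 and 17.1 in SLO, where its log2 fold change was -0.40 ± 0.075 (adjusted p = 3.51e-05). At SLO ½ its value of -0.16 was not called (adjusted p = 0.064, and 0.035 without either VEH replicate 3 or SLO ½ replicate 1). PSMA5 fell at SLO alone of the comparisons with VEH, by 0.22.

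PSMA7, the most abundant alpha subunit, moved in opposite directions at the doses. Its libraries were at 322, 315 and 337 CPM in VEH, 353, 364 and 338 in SLO ½, and 312, 289 and 285 in SLO. The groups did not overlap, although the nearest VEH and SLO ½ libraries lay at 337 and 338 CPM. The log2 fold change was 0.11 ± 0.043 at SLO ½ (adjusted p = 0.028) and -0.14 ± 0.043 at SLO (adjusted p = 0.0056), and SLO was lower than SLO ½ by 0.25 (adjusted p = 2.11e-05). The rise at SLO ½ was not called when VEH replicate 1 (adjusted p = 0.072), VEH replicate 2 (0.125), SLO ½ replicate 1 (0.076) or SLO ½ replicate 2 (0.153) was left out.

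PSMA1 and PSMA2 were not called at either dose. PSMA1 was at 16.8, 15.4 and 18 CPM in VEH, 19, 18.5 and 18 in SLO ½, and 17.1, 17.5 and 16.9 in SLO, with log2 fold changes of 0.14 (adjusted p = 0.132) and 0.04 (adjusted p = 0.713). PSMA2 had only 11 to 34 reads per library, 0.889, 1.05 and 1.25 CPM in VEH, 1.70, 1.94 and 1.44 in SLO ½, and 0.666, 1.71 and 1.13 in SLO. Its log2 fold change at SLO ½ was 0.66 ± 0.280 (adjusted p = 0.051), which was called without VEH replicate 3 (0.048), SLO ½ replicate 3 (0.045), SLO replicate 1 (0.036) or SLO replicate 2 (0.037). At SLO it was 0.12 ± 0.306, and the SLO libraries spanned those of VEH.

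In the beta ring 6 of 7 genes fell at SLO, with a median of -0.36, and the 3 genes of the constitutive catalytic sites, PSMB6 (caspase-like), PSMB7 (trypsin-like) and PSMB5 (chymotrypsin-like), had the largest falls. PSMB6 was at 79.4, 77.1 and 86.0 CPM in VEH, 67.2, 69.1 and 69.4 in SLO ½, and 57.1, 54.9 and 53.7 in SLO. Its libraries separated by dose without overlap, with log2 fold changes of -0.24 ± 0.048 at SLO ½ (adjusted p = 0.000124) and -0.55 ± 0.050 at SLO (adjusted p = 8.77e-11), a fall of 31.7%. PSMB7 was at 149, 142 and 151 CPM in VEH, 136, 140 and 134 in SLO ½, and 114, 107 and 109 in SLO, with -0.11 (adjusted p = 0.032) and -0.42 ± 0.042 (adjusted p = 6.9e-10). PSMB5 was at 90.1, 85.8 and 89.6 CPM in VEH, 79.0, 84.4 and 78.6 in SLO ½, and 69.4, 67.0 and 64.2 in SLO, with -0.13 (adjusted p = 0.016) and -0.40 ± 0.047 (adjusted p = 1.49e-08). The SLO ½ calls of PSMB7 and PSMB5 did not hold in every fit with 1 library left out. That of PSMB5 was not called without SLO ½ replicate 1 (adjusted p = 0.065) or replicate 3 (0.073), and that of PSMB7 without VEH replicate 1 (0.064), VEH replicate 3 (0.117), SLO ½ replicate 1 (0.080) or SLO ½ replicate 3 (0.118). PSMB1, PSMB2 and PSMB3 fell at SLO, by 0.36, 0.28 and 0.31, and were not called at SLO ½. PSMB4, at 142, 126 and 139 CPM in VEH, 134, 128 and 127 in SLO ½, and 130, 126 and 124 in SLO, was the beta gene not called, with -0.10 ± 0.045 at SLO (adjusted p = 0.051). Its groups overlapped through VEH replicate 2, without which its adjusted p was 0.0044, and it was 0.041 without SLO replicate 1.

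The immunoproteasome counterparts of these catalytic genes went the other way at SLO ½. PSMB8, the counterpart of PSMB5, was at 8.44, 8.27 and 7.63 CPM in VEH, 13.1, 14.4 and 14.9 in SLO ½, and 8.41, 8.71 and 9.57 in SLO, with log2 fold changes of 0.80 at SLO ½ (adjusted p = 6.7e-08) and 0.14 at SLO (adjusted p = 0.273). PSMB9 changed by 1.05 and 0.47 (adjusted p = 5.09e-07 and 0.0099), and PSMB10 by 1.45 and 1.10 (adjusted p = 3.73e-06 and 0.000231). In TPM each stayed a small part of its counterpart: PSMB8 was 4.08% of PSMB5 in VEH, 7.79% at SLO ½ and 5.94% at SLO, PSMB9 was 1.94%, 4.71% and 3.90% of PSMB6, and PSMB10 was 0.758%, 2.25% and 2.19% of PSMB7. PSME1, a subunit of the interferon-inducible activator PA28, fell by 0.33 at SLO (adjusted p = 9.63e-07) and was at 0.03 at SLO ½ (adjusted p = 0.614). Its partner PSME2, named after its values were seen, rose by 0.54 at SLO ½ (adjusted p = 5.69e-10) and was at 0.06 at SLO (adjusted p = 0.360). PSMA8 of testis and PSMB11 of thymus had too few counts to be tested.

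All 6 ATPase genes of the 19S cap fell at SLO, with a median of -0.44, and 5 fell at SLO ½. PSMC3 (ENSG00000165916, chr11:47418769-47426473, GRCh38), an ATPase that docks its tail into the alpha ring, had the largest fall of the 41 members at SLO. It was at 255, 252 and 262 CPM in VEH, 217, 222 and 219 in SLO ½, and 173, 166 and 168 in SLO. The spread within each group was at most 10 CPM and the steps between groups were several times that. The log2 fold change was -0.23 ± 0.038 at SLO ½ (adjusted p = 1.17e-05) and -0.60 ± 0.039 at SLO (adjusted p = 4.66e-14). In percent it fell by 34.2%. PSMC6 was at 127, 130 and 132 CPM in VEH, 110, 112 and 106 in SLO ½, and 90.7, 92.1 and 89.8 in SLO, with -0.25 ± 0.041 (adjusted p = 9.11e-06) and -0.51 ± 0.042 (adjusted p = 7.63e-12). PSMC2 was at 141, 152 and 153 CPM in VEH, 129, 129 and 127 in SLO ½, and 116, 105 and 113 in SLO, with -0.21 ± 0.043 (adjusted p = 0.000137) and -0.42 ± 0.044 (adjusted p = 1.92e-09). For these 3 ATPases the groups did not overlap, and each was also lower in SLO than in SLO ½. PSMC4 and PSMC5 fell at SLO by 0.47 and 0.37 and at SLO ½ by 0.15 and 0.12. The SLO ½ call of PSMC4 was lost without VEH replicate 3 (adjusted p = 0.073) or SLO ½ replicate 1 (0.059), and that of PSMC5 without SLO ½ replicate 3 (0.057). PSMC1 was the ATPase gene not called at SLO ½, with 19.9, 22.2 and 23.6 CPM in VEH and 21.7, 23.6 and 21.1 in SLO ½, and fell by 0.39 ± 0.079 at SLO (adjusted p = 9.74e-05).

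Of the 13 non-ATPase genes of the cap, 12 fell at SLO, with a median of -0.31, and 5 fell and ADRM1 rose at SLO ½. SEM1 (ENSG00000127922, chr7:96481626-96709880), the smallest subunit of the lid, was at 92.7, 83.9 and 88.6 CPM in VEH, 71.4, 75.5 and 71.6 in SLO ½, and 60.7, 56.3 and 57.7 in SLO. Its groups did not overlap, and it fell by 0.28 at SLO ½ (adjusted p = 1.53e-05) and by 0.60 at SLO (SE 0.049, adjusted p = 1.08e-11). PSMD11, a scaffold of the lid, was at 183, 194 and 203 CPM in VEH, 170, 163 and 164 in SLO ½, and 135, 135 and 132 in SLO, with -0.22 ± 0.042 (adjusted p = 4.69e-05) and -0.53 ± 0.042 (adjusted p = 6.47e-12). PSMD2, a large scaffold of the base that docks ubiquitin carriers, was the most abundant cap transcript, at 579, 583 and 625 CPM in VEH, 562, 589 and 576 in SLO ½, and 425, 424 and 432 in SLO. Its VEH and SLO ½ libraries overlapped and did not differ by the test (-0.05, adjusted p = 0.300), whereas it fell by 0.48 ± 0.040 at SLO (adjusted p = 1.42e-11) and by 0.43 from SLO ½ to SLO (adjusted p = 8.11e-10). PSMD1, the other large scaffold of the base, had most of its fall already at SLO ½, by 0.28, and reached -0.46 at SLO. PSMD14, the deubiquitinase that cleaves ubiquitin chains from substrates, fell by 0.16 and 0.38 at SLO ½ and SLO. PSMD3, PSMD6, PSMD8, PSMD12 and PSMD13, structural subunits of the lid, fell by 0.17 to 0.32 at SLO and were not called at SLO ½. PSMD7, the lid partner of PSMD14, fell by 0.11 at SLO (adjusted p = 0.035), the smallest fall called in the cap, and it was not called by DESeq2 (0.056), with at least 10 counts in every library (0.089), with only the 2 groups compared (0.051), with library size only (0.505), or without VEH replicate 2 (0.086), VEH replicate 3 (0.055), SLO replicate 1 (0.059) or SLO replicate 2 (0.116).

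The ubiquitin receptors of the cap differed from each other. PSMD4 was at 116, 120 and 118 CPM in VEH, 103, 102 and 99.6 in SLO ½, and 102, 91.5 and 92.5 in SLO, lower than VEH by 0.22 at SLO ½ (adjusted p = 0.000143) and 0.31 at SLO (adjusted p = 7.31e-07). The doses overlapped, and their difference of -0.09 was not called (adjusted p = 0.118), except without SLO replicate 1 (0.019). ADRM1 was at 106, 112 and 115 CPM in VEH, 130, 132 and 131 in SLO ½, and 115, 112 and 108 in SLO. All SLO ½ libraries stood above the others, with a log2 fold change of 0.24 ± 0.042 against VEH (adjusted p = 2.81e-05), and SLO was lower than SLO ½ by 0.23 (adjusted p = 6.19e-05). Against VEH, ADRM1 in SLO was at 0.01 ± 0.043 (adjusted p = 0.911), the value nearest 0 among the 41 members.

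**Figure D4:**
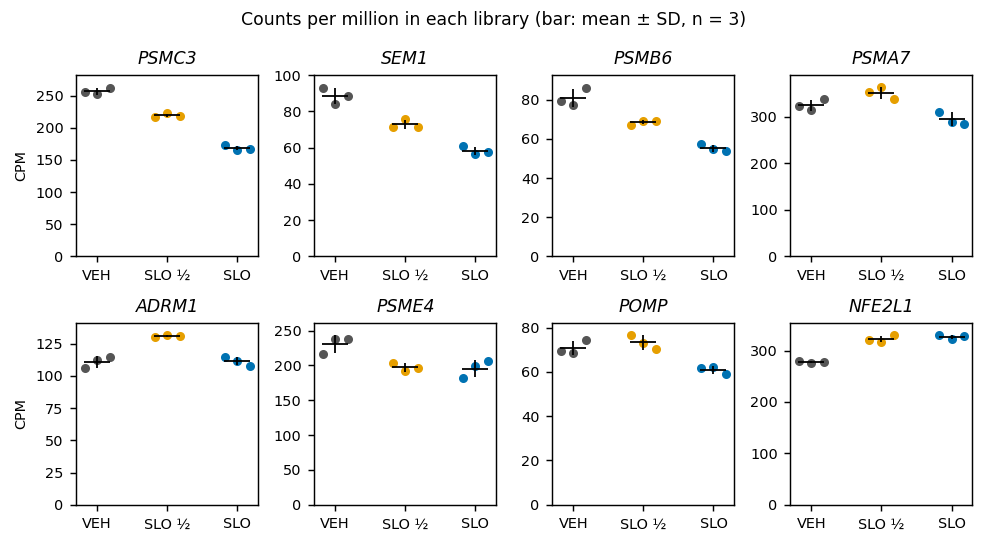
CPM (vertical axes, from 0) of 8 members in each of the 9 libraries, with the mean and SD of 3 libraries per group. PSMC3, SEM1 and PSMB6 step down with dose, ADRM1 and PSMA7 are highest in SLO ½, PSME4 is about equal at both doses (means 197 and 196 CPM), POMP is lower in SLO alone, and NFE2L1 is higher at both doses (322 and 327 CPM, beside 277 in VEH).

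Of the 5 assembly factors of the core, PSMG2, POMP and PSMG1 fell at SLO and PSMG2 alone was called at SLO ½. PSMG2, which pairs with PSMG1 to build the alpha ring, was at 34.1, 30.4 and 32.2 CPM in VEH, 26.3, 27.6 and 29.9 in SLO ½, and 25.1, 23.3 and 24.7 in SLO. VEH lay above both doses, with -0.21 ± 0.066 at SLO ½ (adjusted p = 0.010) and -0.40 ± 0.068 at SLO (adjusted p = 7e-06). The SLO ½ call was lost without SLO ½ replicate 1 (0.069) and stood at the threshold without VEH replicate 1 (0.050), and the difference between the doses (-0.20, adjusted p = 0.022) was lost by DESeq2 (0.069), by limma (0.054 with either pseudocount) and without SLO ½ replicate 3 (0.144) or SLO replicate 2 (0.0999). POMP, which seats the beta subunits and is degraded as the first substrate of the finished core, was at 69.3, 68.3 and 74.2 CPM in VEH, 76.6, 73.1 and 70.1 in SLO ½, and 61.6, 62.0 and 59.0 in SLO, with 0.05 at SLO ½ (adjusted p = 0.385) and -0.22 ± 0.050 at SLO (adjusted p = 0.000433). PSMG1 was at 78.3, 80.6 and 86.6 CPM in VEH, 79.3, 82.3 and 83.0 in SLO ½, and 74.4, 69.4 and 76.9 in SLO. It fell by 0.16 at SLO (adjusted p = 0.0068), a call lost without VEH replicate 3 (0.064) or SLO replicate 2 (0.062). PSMG3 and PSMG4, which act as a second pair on the alpha ring, were low, at 9.71 to 11.9 and 13.3 to 18.1 CPM over the 9 libraries. Their groups overlapped, and their log2 fold changes at SLO were -0.08 ± 0.095 (adjusted p = 0.457) and -0.09 ± 0.092 (adjusted p = 0.429).

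The alternative activators, which open the core without ubiquitin or ATP, both fell at SLO. PSME4, known as PA200 and tied to degradation of acetylated histones, was at 216, 238 and 238 CPM in VEH, 204, 191 and 197 in SLO ½, and 182, 199 and 206 in SLO. Both doses lay below VEH and overlapped each other, with -0.23 ± 0.046 (adjusted p = 0.000146) and -0.24 ± 0.047 (adjusted p = 5.08e-05), and their difference was -0.01 ± 0.047 (adjusted p = 0.858). PSME3, the nuclear activator PA28 gamma, was at 226, 240 and 252 CPM in VEH, 240, 236 and 242 in SLO ½, and 221, 226 and 219 in SLO. Its log2 fold change was -0.11 ± 0.041 at SLO (adjusted p = 0.022), a call lost with library size only (0.476), at least 10 counts (0.066) or only the 2 groups compared (0.051) and without VEH replicate 3 (0.152) or SLO replicate 3 (0.071), and -0.0012 at SLO ½ (adjusted p = 0.983). The fall of PSME3 from SLO ½ to SLO (-0.11, adjusted p = 0.036) was lost by DESeq2 (0.070) and limma (0.208 and 0.212), and without any 1 of 5 libraries, SLO ½ replicate 1 (0.0895), 2 (0.052) or 3 (0.113) and SLO replicate 1 (0.077) or 3 (0.116).

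NFE2L1 (ENSG00000082641, chr17:48048329-48061545), the activator of the subunit genes, was the member that rose at both doses. Its libraries were at 279, 275 and 277 CPM in VEH, 321, 317 and 330 in SLO ½, and 330, 322 and 329 in SLO. Every treated library lay above every VEH library, as did 33.7% of all tested genes at SLO and 30% at SLO ½. The log2 fold change was 0.22 ± 0.038 at SLO ½ (adjusted p = 1.62e-05) and 0.24 ± 0.038 at SLO (adjusted p = 2.61e-06), and the doses overlapped, with a difference of 0.02 ± 0.037 (adjusted p = 0.704). NFE2L1 is controlled mainly after translation, so its RNA does not measure its activity. Among the 12 members with TGACNNNGC in a promoter window 11 fell at SLO and the other was not called, with a median of -0.35, and among the 23 without it 18 fell, with a median of -0.28, given as a description of overlapping ranges (-0.60 to 0.01 with it and -0.60 to 0.24 without).

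Of 15 genes of NFE2L1 processing and its partners, 7 rose and 4 fell at SLO, and 4 rose and 3 fell at SLO ½. Over all tested genes 32.9% rose and 32.1% fell at SLO and 26.7% and 25.3% at SLO ½, so that the shares of this list are near the background, apart from the count that rose at SLO, which was not tested as a set. NFE2L3, a relative of NFE2L1, was at 35.2, 36.2 and 36.4 CPM in VEH and 24.2, 26 and 26.6 in SLO, a fall of 0.49 (adjusted p = 5.17e-08), and BACH1, a repressor at antioxidant response elements, fell by 0.38 at SLO and by 0.45 at SLO ½ (adjusted p = 4.15e-09 and 4.54e-10). DDI2, the protease that cleaves NFE2L1 into its active form, was named after its values were seen: it was at 25.8, 34.5 and 31.4 CPM in VEH, 34.6, 32.4 and 32.3 in SLO ½, and 41.2, 42.7 and 43.5 in SLO, a rise of 0.47 at SLO (adjusted p = 1.48e-06), and was not called at SLO ½ (0.12, adjusted p = 0.195).

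Other genes around the proteasome were mixed. Of 18 proteasome-associated genes, 11 fell and 3 rose at SLO, and 8 fell and 4 rose at SLO ½, beside 32.1% lower and 32.9% higher of all tested genes at SLO and 25.3% and 26.7% at SLO ½. ECPAS, a scaffold that clamps the cap to the core, had the largest fall of them, at 218, 222 and 210 CPM in VEH, 144, 134 and 137 in SLO ½, and 114, 116 and 121 in SLO. Its libraries separated by dose, with -0.65 ± 0.041 (adjusted p = 1.52e-13) and -0.89 ± 0.042 (adjusted p = 4.54e-17). It fell by 36.1% and 46.0%, more than any of the 41 members. ZFAND5, which binds and stimulates the 26S proteasome, rose by 0.27 at SLO ½ and 0.54 at SLO (adjusted p = 1.36e-06 and 5.59e-13), from 176, 177 and 172 CPM in VEH to 260, 250 and 253 in SLO. Of the 4 chaperones of the cap, 3 fell at SLO: PAAF1 fell by 0.28 (adjusted p = 0.0015) and PSMD10 by 0.17 (adjusted p = 0.0023), both binders of ATPase tails. Of 6 ubiquitin and E1 genes 5 fell at SLO. RPS27A, which encodes ubiquitin fused to a ribosomal protein, fell by 0.29 at SLO ½ and 0.87 at SLO (adjusted p = 1.63e-06 and 2.44e-16), and UBA6, an E1 enzyme, fell by 0.39 and 0.50 (adjusted p = 7.57e-09 and 2.18e-11).

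Large complexes of other function gave counts of the same kind. In the COP9 signalosome and eIF3, which share the domain layout of the 19S lid, 6 of 10 and 12 of 13 genes fell at SLO, with medians of -0.30 and -0.41, beside 32.1% of all tested genes. In the cytosolic chaperonin CCT all 8 genes fell at both doses, with medians of -0.19 at SLO ½ and -0.52 at SLO. The 33 subunits of the 26S proteasome, taken alone, had 29 lower and a median of -0.37 at SLO, and 15 lower and a median of -0.09 at SLO ½. The fall of the members was not shown to be particular to the proteasome, and no test of a difference between these complexes was made.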

How the data were processed

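Polyadenylated RNA of HMC3 cells (VEH, SLO ½ and SLO, 3 libraries each) was made into KAPA RNA HyperPrep libraries. Trimming by the authors used Trimmomatic 0.38 and alignment used STAR 2.7.1a on GRCh38, whose counts of uniquely aligned reads per gene and strand they deposited as raw whole numbers. TPM, scaled by gene length and depth, were deposited beside them. The annotation release and the gene lengths used are not given in the sources used here. Lines that name no gene held 18.0% to 20.1% of reads and were left out.

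Counts were analysed with edgeR 4.0.16 in R 4.3.3: filterByExpr, TMM factors (0.968 to 1.035), and 1 quasi-likelihood fit of group over all 9 libraries, with Benjamini-Hochberg adjustment over 14727 genes. CPM are TMM-scaled, and standard errors come from the fold change and its F statistic. The overall biological coefficient of variation was 3.76%. The procedure was tested on simulated data. Alternatives used DESeq2 1.42.0, its size factors, no scaling beyond library size, a fit with the replicate number as block, a fit restricted to the pair of groups in question, no filter on low counts or a minimum of 10 in each library, limma 3.58.1 on log2(TPM + 1) and log2(TPM + 0.1), and each library left out in turn. Exon overlaps and stretches of 50 bases were computed from a GENCODE annotation and transcripts of GRCh38, and promoter windows are from RefSeq.

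The members and gene lists were chosen with earlier results of these data known. Genes given with values were, by rule, the 3 with the smallest p at SLO in each role, every member not called or called against the median direction, PSMB5 to PSMB7, PSME3, PSME4, POMP and NFE2L1, the 2 with the smallest p in each pathway list, and PSMB8 to PSMB10. The remaining 16 members were given values outside this rule, after these were seen, PSMC1 and PSMD4 by library, as were PSME2, DDI2, PITHD1 and the markers named. Replicates were not near-identical (chi-square per degree of freedom 1.77 to 4.06 within groups). Some results that meet these rules are not reported here.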

Additional observations from a re-analysis of the deposited data

Results flagged for a closer look

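PSMA7, the most abundant alpha subunit, stood out because it was called in opposite directions at the doses and the test of the difference itself was passed: SLO was lower than SLO ½ by 0.25 on the log2 scale (log2 fold change -0.25, adjusted p = 2.11e-05 by edgeR's quasi-likelihood test), and all 3 SLO libraries lay below all 3 SLO ½ libraries. The rise at SLO ½ was small (0.11, adjusted p = 0.028) and was not called by DESeq2 (0.059), without the filter on low counts (0.095) or by limma on TPM (0.217 to 0.220). The fall at SLO (-0.14) was not called with library size as the only scaling (-0.07, adjusted p = 0.175).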

How the results depend on the processing

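Over all alternatives the median change of the members stayed negative in each comparison. At SLO the count called lower was 29 to 35, at SLO ½ 12 to 23, and in SLO against SLO ½ 28 to 32, with the lowest count at either dose from library size as the only scaling. That scaling moved the medians to -0.24 (SLO), -0.023 (SLO ½) and -0.21 (SLO against SLO ½) and gave 5 members higher at SLO ½ in place of 3, adding PSMA1 and PSMA2, while PSMA7, PSMD7, PSMD12, PSMG1 and PSME3 were no longer called at SLO, nor PSMB5, PSMB7, PSMC4, PSMC5 and PSMG2 at SLO ½. With library size only, the median of all tested genes was 0.089 at SLO, 0.065 at SLO ½ and 0.023 between the doses. The main fit gave 0.014, 0.015 and -0.0014 for all tested genes in the same order. At least 10 counts in every library gave a member median of -0.29 at SLO, beside 0.0062 for all genes tested there. limma on log2(TPM + 1) and log2(TPM + 0.1) gave medians of -0.11 and -0.12 at SLO ½ and -0.19 and -0.20 between the doses. For all tested genes limma gave -0.023 and -0.025 at SLO ½ and 0.027 and 0.032 between the doses. Leaving out each library in turn gave 32 to 35 members called at SLO (31 to 34 lower, 1 higher, median -0.35 to -0.29), 16 to 22 at SLO ½ (14 to 19 lower, 2 to 4 higher, median -0.11 to -0.066) and 29 to 32 between the doses (median -0.24 to -0.21). CPM in place of TPM put the sums, as percent of VEH, at 94.7% for all members, 95.9% for the 20S core, 92.0% for the 19S cap, 93.1% for the beta ring, 87.8% for the ATPase ring and 99.7% for the assembly factors at SLO ½, and at 71.8% for the ATPase ring and 78.2% for the non-ATPase subunits at SLO. The cause was not tested.

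Same-numbered replicates did not deviate together (correlations 0.003 to 0.087, and 4 of 9 libraries correlated best with their own number). The labels give them only a number in common, and small correlations cannot show that nothing else was shared. With the replicate number as a block 36 members were called at SLO, 21 at SLO ½ and 32 between the doses, with medians of -0.31, -0.07 and -0.23, and PSMB4 (SLO) and PSMA2 (SLO ½) were newly called.

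Values near 0 that were not called changed sign under some settings. With a library left out, the values at SLO ran from -0.022 to 0.092 for PSMA1, from -0.27 to 0.41 for PSMA2 and from -0.032 to 0.029 for ADRM1, which was also at -0.014 without a filter and -0.00042 by limma with either pseudocount. At SLO ½ the ranges were -0.042 to 0.036 for PSMG1, -0.0070 to 0.061 for PSMG3, -0.020 to 0.14 for PSMG4, -0.042 to 0.036 for PSME3 and -0.0035 to 0.060 for PSME1. There PSMG1 and PSME3 were at 0.043 and 0.049 with library size only and 0.012 and 0.018 with at least 10 counts, PSME3 was at 0.0053 with only the 2 groups compared, and limma gave -0.0146 and -0.0151 for PSMG3 and -0.0101 and -0.0102 for PSME1. Between the doses the ranges were -0.051 to 0.037 for PSME4 and -0.065 to 0.0056 for PAAF1, and limma gave 0.0042 for PSMB4, 0.0212 and 0.0214 for PSME4 and 0.0075 and 0.0081 for PAAF1, with PSME4 at 0.012 by library size only. Among other calls, PSMB4 was called at SLO with DESeq2 size factors (0.045) and without a filter (0.038), PSMA2 at SLO ½ with at least 10 counts (0.036) and with only the 2 groups compared (0.029), PSMA6 at SLO ½ with DESeq2 size factors (0.048) and by limma (0.038 and 0.036), and PSMB7 at SLO ½ was not with at least 10 counts (0.071), adjusted p in each case. Depth limits PSMA2, PSMG3 and PSMG4 most.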

Other observations

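PITHD1, a proteasome-associated protein named after its values were seen, was among the 3 genes of its list that rose at SLO. It was at 42.9, 40.0 and 43.2 CPM in VEH, 51.4, 52.4 and 51.4 in SLO ½, and 61.1, 60.6 and 61.9 in SLO, without overlap between groups. Its log2 fold change was 0.30 at SLO ½ and 0.54 at SLO (adjusted p = 1.6e-05 and 1.89e-10 by edgeR's quasi-likelihood test), close to that of ZFAND5 at both doses.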
